A study of Mus musculus and Homo sapiens with 17 samples.

Results

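Squamous cell carcinomas (SCC) of mouse skin labelled Dusp1 knockout (KO) were compared with wild-type (WT) carcinomas, gene by gene. All features with a gene name were taken as members, and 22371 of them passed the filter on low counts and were tested, of 55988 features in the table. The carcinomas comprised 2 libraries labelled KO and 3 labelled WT, from a C57BL/6-129 background and treated with DMBA, a carcinogen, and TPA, a tumour promoter. The same table holds 3 libraries of WT skin and 3 of papilloma labelled KO, treated alike, which entered the fit and are given here as levels only, because there is neither KO skin nor WT papilloma to set beside them. A separate table holds A431 cells, an established human line of squamous carcinoma, with 3 libraries carrying a guide against DUSP1 and 3 carrying a control guide, grown as tumours in mouse skin and recovered. Keratinocytes are the labelled cell type, but the mouse RNA was taken from whole frozen sections, so that stroma and infiltrating cells entered it. No label describes the knockout allele, whether it acts in all tissues, or whether the libraries of a group come from separate animals. The p-values therefore measure the spread between these libraries, which may be technical.

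Dusp1 encodes a phosphatase of the nucleus that removes phosphate from the threonine and tyrosine of activated p38, JNK and ERK kinases. It is itself an immediate early gene, induced by the signals it later switches off. Squamous carcinomas arise from keratinocytes, which leave the basal layer, switch keratins, and build a cornified envelope of cross-linked proteins under a seal of lipids. Keratinocytes also store and release cytokines of the IL-1 family and antimicrobial proteins, by which they alert the immune system.

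The carcinoma libraries held 35.6 to 47.4 M counts (units of 1e6). Over the 4 mouse groups fitted together, a typical gene varied between libraries of a group by 36.6%, the biological coefficient of variation. A count of 0 allowed a level of up to 0.0618 to 0.0871 counts per 1e6 counts (CPM) in these libraries, taking 3 counts as the limit, which covers counting error only. Replicates differed by far more than sampling noise. KO SCC replicate 2 stood apart: 4 genes of the Y chromosome (Ddx3y, Eif2s3y, Kdm5d and Uty) summed to 4779 counts there and to 0 in the other 4 carcinomas, and Xist was at 203 and 15.3 CPM in SCC labelled KO and at 497, 478 and 404 CPM in WT SCC. The same 4 genes summed to 6624 and 9552 counts in WT skin replicates 1 and 2. The part of KO SCC replicate 2 in the results was not tested beyond the values given without it and with a covariate for Y chromosome counts. That covariate marked it together with WT skin replicates 1 and 2. The 10 keratinocyte markers were all tested and summed to 61807 and 58255 CPM in SCC labelled KO and 46039.7, 46129 and 44272 CPM in WT SCC. None of them was at 0. Krt14, which was not called, made up most of that sum, and the markers' median log2 fold change was -0.04, with 2 called higher and 1 lower.

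The transcript of the targeted gene did not follow the label. Dusp1 was at 139 and 174 CPM in SCC labelled KO and 73.3, 83.7 and 66.6 CPM in WT SCC. Both libraries labelled KO lay above the 3 WT libraries, and the gene was 2.11-fold higher (log2 fold change 1.07 ± 0.25, adjusted p = 0.0284, edgeR's quasi-likelihood test with Benjamini-Hochberg adjustment, used for all adjusted p below). That call was lost without any 1 of the 5 libraries (adjusted p 0.0718 to 0.144). Papillomas labelled KO held 128.8, 109.3 and 109.6 CPM of Dusp1, and WT skin 94.1, 109.2 and 52.4 CPM. The counts do not show which exons were read, so they do not settle the label, and every direction below is that of the labels.

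Of the genes tested, 1003 (4.48%) were called higher and 757 (3.38%) lower in SCC labelled KO at an adjusted p of 0.05, or 7.87% in either direction. Counts of calls in the lists below are to be read against these shares. In 10424 genes no value of one carcinoma group lay within the range of the other (46.6%), of which 5123 (22.9%) were higher and 5301 (23.7%) lower. Changes of at least 4-fold were called in 188 genes that rose and 99 that fell, and the median log2 fold change of all genes tested was -0.01. Calls depended on single libraries: 167 rises (0.747%) and 46 falls (0.206%) were called with all 5 libraries and again without each of them in turn. Those 213 genes, called stable below, were also called with a replicate block and under 5 other settings. These were RLE size factors, no filter on low counts, DESeq2, the carcinomas alone and a covariate for Y chromosome counts, and counts given below for other settings come from them. Those counts, and statements of where a call was lost, leave out the replicate block unless it is named. With the block, rises numbered 10 in cornified envelope, 0 in DNA replication, 3 in mitosis and 2 in mitochondrially encoded genes. Falls with it numbered 1 in MHC class I, 0 in collagen and 1 in complement genes. Of 237 called genes that the naming rule reached apart from Dusp1, 72 lost their call with the block. The genes described first are the 15 stable genes of largest rise and the 15 of largest fall whose groups did not overlap.

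**Figure D1:**
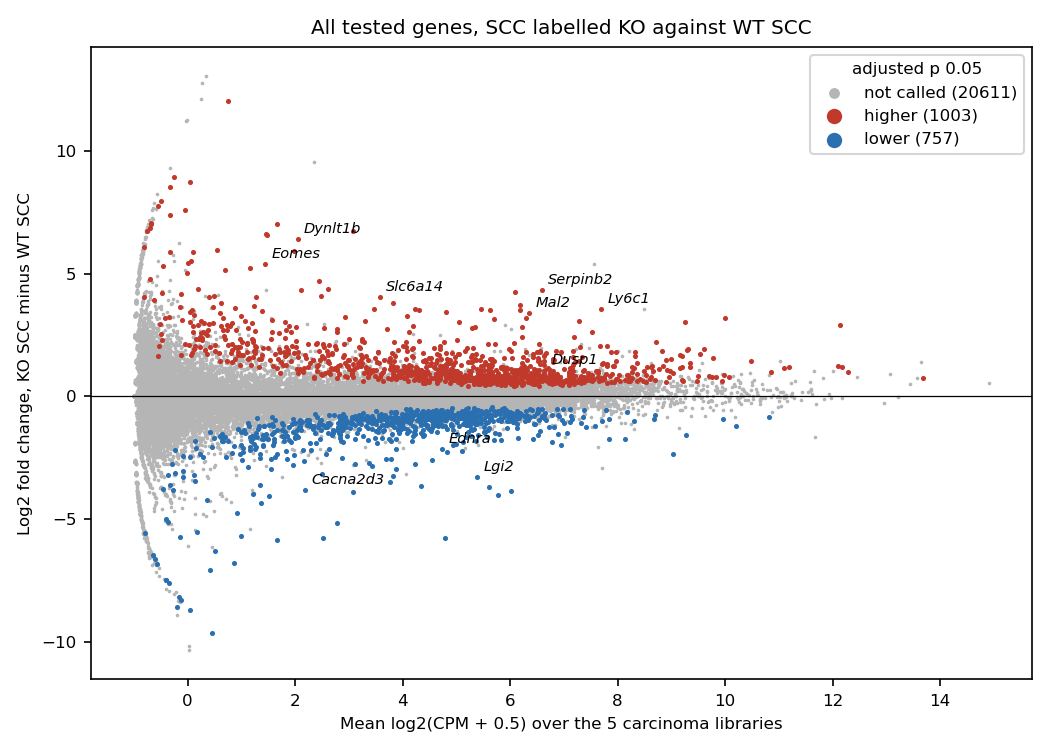
Log2 fold change of SCC labelled KO over WT SCC (y axis) against mean log2(CPM + 0.5) over the 5 carcinoma libraries (x axis), with 1 point per tested gene. The 1003 genes called higher are red, the 757 called lower are blue, and 10 of the genes described in the text are named.

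Serpinb2, Mal2 and Ly6c1 were among the largest rises, and which cells of the sections held their transcripts was not tested. Serpinb2, the serpin known as plasminogen activator inhibitor 2 (ENSMUSG00000062345.10; chromosome 1, 107511423 to 107535478 on the plus strand in GRCm38), was at 673 and 491 CPM in SCC labelled KO and 33.6, 21.8 and 32.2 CPM in WT SCC. The libraries labelled KO were far above all of WT, 19.9-fold by the fit (log2 fold change 4.32 ± 0.27, adjusted p = 1.64e-05). WT skin held 97.99, 84.3 and 64.96 CPM and papillomas labelled KO 284, 246 and 189 CPM, so the WT carcinomas had the lowest levels of the 4 groups. Mal2, a membrane protein of transport to the apical surface (ENSMUSG00000024479.3; chromosome 15, 54571192 to 54602847 on the plus strand), was at 339.9 and 329.7 CPM in SCC labelled KO and 38.3, 25.5 and 32.2 CPM in WT SCC. The groups did not overlap and the rise was 10.5-fold (log2 fold change 3.39 ± 0.20, adjusted p = 1.25e-05), with 252, 256 and 216 CPM in papillomas labelled KO and 63.9, 45.2 and 54.04 CPM in WT skin. Ly6c1, a surface protein of the Ly6 family, stood at 842 and 976 CPM in SCC labelled KO and 95.1, 63.5 and 73.4 CPM in WT SCC. Every library labelled KO exceeded every WT carcinoma, by 11.8-fold (log2 fold change 3.56 ± 0.22, adjusted p = 1.64e-05).

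Transporters and adhesion molecules were among the same set. Slc6a14, which carries neutral and cationic amino acids, was at 31.6 and 98.4 CPM in SCC labelled KO and 3.19, 2.47 and 6.29 CPM in WT SCC. Its level in KO SCC replicate 2 was above that in replicate 1, but both were above WT, by 16.3-fold (log2 fold change 4.03 ± 0.52, adjusted p = 0.00187). Slc38a4, another amino acid transporter, was at 106 and 56.2 CPM in SCC labelled KO and 6.13, 5.68 and 8.92 CPM in WT SCC (11.7-fold, log2 fold change 3.55 ± 0.35, adjusted p = 0.000547). Ceacam1, an adhesion molecule and inhibitory receptor, was at 73.9 and 92.1 CPM in SCC labelled KO and 4.76, 9.04 and 7.94 CPM in WT SCC (11.4-fold, log2 fold change 3.51 ± 0.53, adjusted p = 0.00423). The groups of both genes were separate. Epha7, a receptor of ephrins, was at 35.3 and 27.1 CPM in SCC labelled KO and 1.39, 0.782 and 1.44 CPM in WT SCC. This was a 25.9-fold rise (log2 fold change 4.70 ± 0.61, adjusted p = 0.00196), with WT skin at 3.05, 1.19 and 0.441 CPM and papillomas labelled KO at 12.6, 8.64 and 14.3 CPM.

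Genes with a low WT level were also among the largest rises. Eomes, a T-box factor best known in cytotoxic lymphocytes, was at 8.37 and 23.8 CPM in SCC labelled KO and 0.377, 0.329 and 0.443 CPM in WT SCC. The 2 libraries labelled KO differed from each other, yet both were above WT (41.7-fold, log2 fold change 5.38 ± 0.61, adjusted p = 0.00109). Of 12 tested markers of cytotoxic lymphocytes Eomes alone was called, and 4 more were too low to be tested. Gzmb, a granzyme, was at 1.13 and 2.36 CPM in SCC labelled KO and 0.377, 0.391 and 0.722 CPM in WT SCC and did not pass (adjusted p = 0.0753). Nexmif, an X-linked gene named for neurite extension, was at 8.49 and 6.31 CPM in SCC labelled KO and 0.813, 0.391 and 0.536 CPM in WT SCC (12.8-fold, log2 fold change 3.68 ± 0.53, adjusted p = 0.00360). Upk3bl, a uroplakin-like gene, was at 22.3 and 30.6 CPM in SCC labelled KO and 3.63, 2.12 and 2.75 CPM in WT SCC (9.36-fold, log2 fold change 3.23 ± 0.40, adjusted p = 0.00155). Both had groups that did not overlap.

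Among the falls, Lgi2, which encodes a secreted leucine-rich protein (ENSMUSG00000039252.11; chromosome 5, 52533517 to 52566462 on the minus strand), was at 11.1 and 9.71 CPM in SCC labelled KO and 99.4, 106 and 101 CPM in WT SCC. The WT carcinomas were close to each other and all far above the libraries labelled KO, in which the gene was 9.82-fold lower (log2 fold change -3.30 ± 0.41, adjusted p = 0.00171). Its level was 14.9, 19.4 and 19.1 CPM in papillomas labelled KO and 14.2, 31.04 and 9.96 CPM in WT skin, so the WT carcinomas stood above all other groups. Ednra, the endothelin receptor A, was at 8.02 and 13.4 CPM in SCC labelled KO and 46.8, 48.5 and 47.2 CPM in WT SCC. It fell 4.42-fold with no overlap (log2 fold change -2.15 ± 0.23, adjusted p = 0.000777), and WT skin, at 15.5, 21.7 and 19.7 CPM, was also below the WT carcinomas. Cacna2d3, an accessory subunit of voltage-gated calcium channels, was at 0.462 and 1.02 CPM in SCC labelled KO and 9.55, 11.6 and 10.6 CPM in WT SCC (14.2-fold lower, log2 fold change -3.82 ± 0.42, adjusted p = 0.000914).

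The other falls of the set had varied roles. Xpnpep2, a membrane-bound aminopeptidase, was at 1.67 and 0.969 CPM in SCC labelled KO and 11.7, 12.3 and 11.2 CPM in WT SCC (8.89-fold lower, log2 fold change -3.15 ± 0.36, adjusted p = 0.00109). Gfra1, the co-receptor of the neurotrophic factor GDNF, was at 0.895 and 1.12 CPM in SCC labelled KO and 5.28, 6.94 and 8.64 CPM in WT SCC (6.89-fold lower, log2 fold change -2.78 ± 0.39, adjusted p = 0.00311). In both, no library labelled KO reached the lowest WT carcinoma. Dapl1, a gene of epithelial differentiation related to death-associated protein, was at 12.4 and 14.6 CPM in SCC labelled KO and 77.7, 55.02 and 56.8 CPM in WT SCC (4.68-fold lower, log2 fold change -2.23 ± 0.24, adjusted p = 0.000907). Sec14l2, a lipid-binding protein, was at 17.8 and 20.4 CPM in SCC labelled KO and 62.2, 70.9 and 70.02 CPM in WT SCC (3.55-fold lower, log2 fold change -1.83 ± 0.16, adjusted p = 0.000268). Tanc2, a scaffold protein, was at 11.7 and 14.95 CPM in SCC labelled KO and 58.8, 52.7 and 45.5 CPM in WT SCC (3.92-fold lower, log2 fold change -1.97 ± 0.23, adjusted p = 0.00109). The orphan receptor gene Gpr27 (log2 fold change -2.57 ± 0.41), Bend5 (-2.13 ± 0.29) and AI464131 (-2.18 ± 0.28) completed the set outside the neighbourhood of Dusp1.

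**Figure D2:**
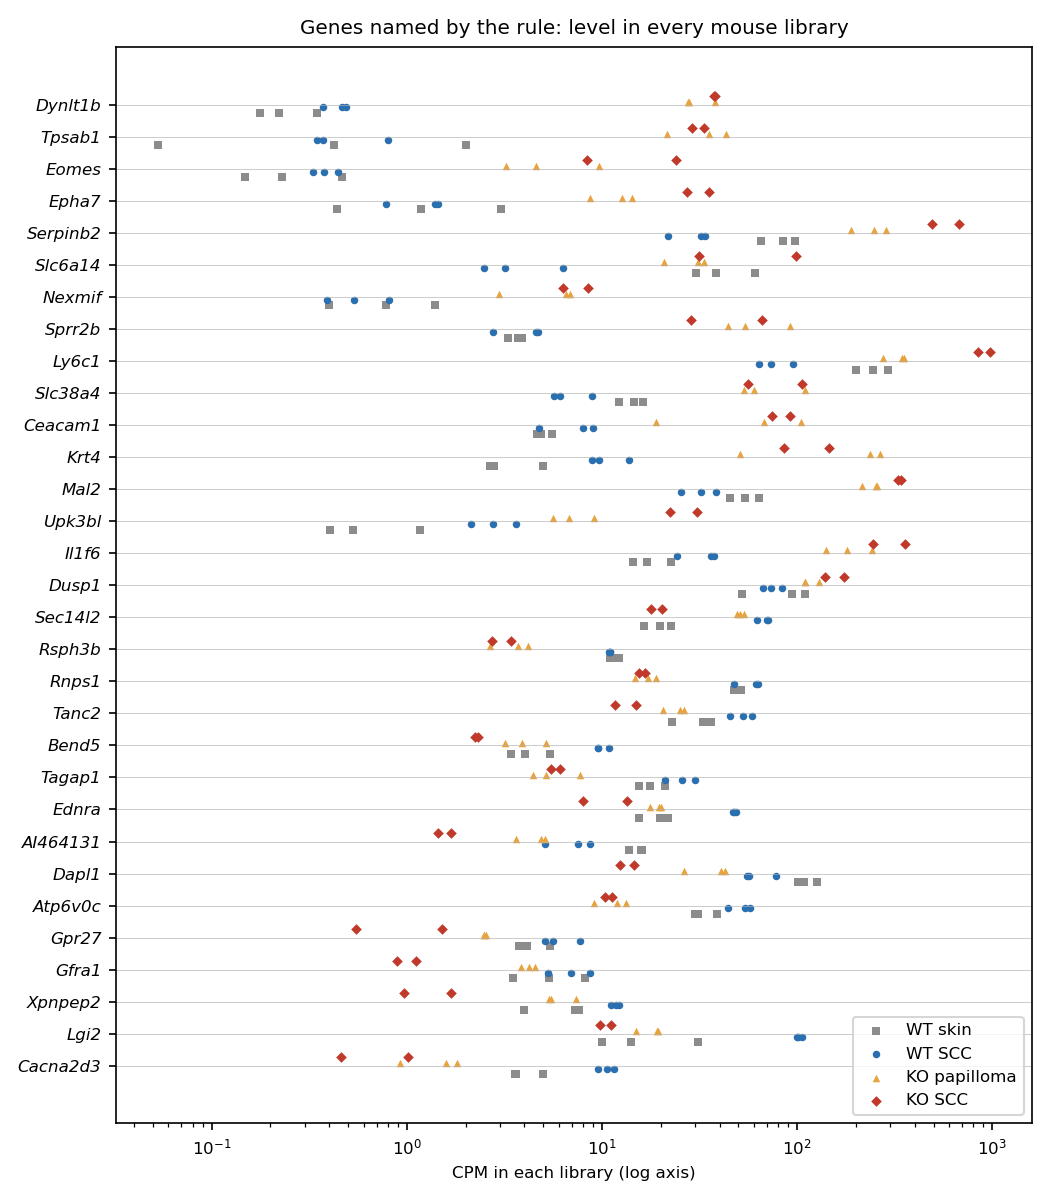
CPM on a log axis in each of the 11 mouse libraries for Dusp1 and the 30 genes of largest stable change, ordered by log2 fold change, with 1 point per library and a colour and shape per group. In all 15 risers the 2 SCC libraries labelled KO lie right of the 3 WT SCC libraries and in all 15 fallers left of them; the papillomas labelled KO and WT skin are shown for reference only.

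Part of the strongest changes lay near Dusp1 itself or in gene copies. Within 20 Mb of Dusp1 on chromosome 17, 74 of 656 tested genes were called (11.3%), against 7.76% elsewhere, and 14 of the stable genes lay there. Atp6v0c, a subunit of the vacuolar proton pump (chromosome 17, 24163866 to 24169702 on the minus strand), was at 10.3 and 11.3 CPM in SCC labelled KO and 43.96, 57.5 and 53.95 CPM in WT SCC, while Atp6v0c-ps2, a processed pseudogene of it carried by chromosome 6, stood at 117 and 102 CPM in SCC labelled KO and 0.755, 1.13 and 1.19 CPM in WT SCC. The gene was thus lower and its copy higher in every library labelled KO (log2 fold change -2.26 ± 0.21, adjusted p = 0.000353 and log2 fold change 6.72 ± 0.30, adjusted p = 1.74e-06). The papillomas labelled KO held 13.3, 9.10 and 11.9 CPM of the gene and 142, 88.8 and 125 CPM of the copy. Rnps1, a component of the exon junction complex, fell likewise, from 47.6, 62.9 and 61.3 CPM in WT SCC to 16.5 and 15.5 CPM (log2 fold change -1.84 ± 0.17, adjusted p = 0.000279). The mast cell tryptase gene Tpsab1, in the same window, was at 33.4 and 28.9 CPM in SCC labelled KO and 0.348, 0.803 and 0.373 CPM in WT SCC (log2 fold change 5.90 ± 0.88, adjusted p = 0.00423). Dynlt1b encodes a light chain of dynein and has close copies on its chromosome (chromosome 17, 6430112 to 6436296 on the plus strand). Its level was 37.3 and 37.8 CPM in SCC labelled KO and 0.465, 0.371 and 0.489 CPM in WT SCC (log2 fold change 6.41 ± 0.26, adjusted p = 1.36e-06). Tagap1 (log2 fold change -2.14 ± 0.27) and Rsph3b (-1.83 ± 0.23) fell within the window. Genotype, and alleles of the mixed background carried along with it, cannot be told apart in this design, and reads of near-identical copies may have been assigned unevenly.

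Of 37 tested structural genes of the cornified envelope, 20 were called higher and 0 lower, with a median log2 fold change of 1.58 against -0.01 over all genes. Crct1, a cysteine-rich gene of the epidermal differentiation complex, was at 1039 and 1062 CPM in SCC labelled KO and 238, 190.2 and 260.4 CPM in WT SCC. It rose 4.58-fold without overlap (log2 fold change 2.19 ± 0.19, adjusted p = 0.000232), and WT skin at 711, 504 and 518 CPM lay between the carcinoma groups. The late envelope gene Lce3c was at 571 and 534 CPM in SCC labelled KO and 72.2, 54.1 and 72.8 CPM in WT SCC (8.33-fold, log2 fold change 3.06 ± 0.48, adjusted p = 0.00541), and the small proline-rich gene Sprr2b at 28.6 and 66.3 CPM in SCC labelled KO and 4.70, 2.76 and 4.57 CPM in WT SCC (11.9-fold, log2 fold change 3.57 ± 0.39, adjusted p = 0.000886). These 3 genes were the stable ones. Lce1a1, of the first late envelope cluster, was at 106 and 80.5 CPM in SCC labelled KO and 30.8, 25.1 and 41.1 CPM in WT SCC (log2 fold change 1.52 ± 0.28, adjusted p = 0.00982). The Lce1a1 call was lost when WT SCC replicate 2 or KO SCC replicate 1 was left out (adjusted p 0.0526 to 0.101). Abundant members that did not pass were Krtdap at 7464 and 5311 CPM in SCC labelled KO and 3813, 2915 and 2717 CPM in WT SCC (adjusted p = 0.0647) and Sprr1a at 2365 and 2841 CPM in SCC labelled KO and 1367, 1331 and 1550.0 CPM in WT SCC (adjusted p = 0.116). The number of calls in the list was 5 and 8 without KO SCC replicate 1 or 2, and 8, 3 and 13 without WT SCC replicate 1, 2 or 3, while other settings gave 15 to 31 (the most with the carcinomas alone). These families hold near-identical copies, so the values of single members are uncertain.

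Enzymes that cross-link and process the envelope followed in part, with 5 of 26 called higher, 0 lower and a median of 0.86. Spink5, which encodes the inhibitor LEKTI of epidermal kallikreins, was at 2776 and 5088 CPM in SCC labelled KO and 502, 353 and 454 CPM in WT SCC. Both libraries labelled KO were above every other mouse library, the papillomas labelled KO reaching 1256, 2105 and 1422 CPM, and the rise over WT SCC was 9.01-fold (log2 fold change 3.17 ± 0.33, adjusted p = 0.000761). Prss8, a membrane-anchored protease of the barrier, was at 67.7 and 67.8 CPM in SCC labelled KO and 32.4, 31.98 and 32.4 CPM in WT SCC (log2 fold change 1.07 ± 0.15, adjusted p = 0.00343) and was stable too. Tgm1, the transglutaminase at the cell membrane, was at 502 and 509 CPM in SCC labelled KO and 225, 229.8 and 206 CPM in WT SCC (log2 fold change 1.20 ± 0.20, adjusted p = 0.00758). The Tgm1 call was lost when KO SCC replicate 1 was left out (adjusted p = 0.0578). Tgm3, the transglutaminase of the upper layers, was at 1618 and 2753 CPM in SCC labelled KO and 286, 243 and 279 CPM in WT SCC (log2 fold change 3.02 ± 0.56, adjusted p = 0.0107). The Tgm3 call was lost when WT SCC replicate 2 or KO SCC replicate 2 was left out (adjusted p 0.0582 to 0.0584). The kallikrein gene Klk10 was at 1303 and 1375 CPM in SCC labelled KO and 425, 558 and 601 CPM in WT SCC and did not pass (adjusted p = 0.0806). The list counted 3 and 4 without KO SCC replicate 1 or 2, and 5, 3 and 5 without WT SCC replicate 1, 2 or 3, while other settings gave 5 to 20 (the most with the carcinomas alone).

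Genes that make and move the barrier lipids were called in part: 13 of 32 were higher, 7 of them stable, and 1 lower (median 0.68). Cers3, the synthase of ultra-long ceramides, was at 544 and 447 CPM in SCC labelled KO and 146, 133 and 149 CPM in WT SCC. This 3.48-fold rise (log2 fold change 1.80 ± 0.19, adjusted p = 0.000761) placed the libraries labelled KO above WT skin (68.6, 46.6 and 50.8 CPM) as well as WT SCC. Abca12, which loads lipid into lamellar granules, was at 326 and 395 CPM in SCC labelled KO and 148, 138 and 152 CPM in WT SCC (log2 fold change 1.30 ± 0.19, adjusted p = 0.00357). The acid sphingomyelinase gene Smpd1, which releases ceramide from sphingomyelin, was at 235 and 194 CPM in SCC labelled KO and 60.9, 52.8 and 73.5 CPM in WT SCC (log2 fold change 1.78 ± 0.21, adjusted p = 0.00134). Neither gene's groups overlapped. Sptlc2 (log2 fold change 1.05 ± 0.12), a subunit of the first enzyme of sphingolipid synthesis, Ugcg (1.05 ± 0.15), which glucosylates ceramide, Nipal4 (1.17 ± 0.14) and Sdr9c7 (1.79 ± 0.27), both mutated in ichthyosis, were the other stable members. Degs1 at 526 and 499.5 CPM in SCC labelled KO and 363, 327 and 342 CPM in WT SCC did not pass (adjusted p = 0.0710). The list counted 8 and 8 without KO SCC replicate 1 or 2, and 10, 7 and 10 without WT SCC replicate 1, 2 or 3, while other settings gave 10 to 23 (the most with the carcinomas alone).

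Keratins were called in both directions. Of 11 suprabasal and hyperproliferation keratins 1 was called higher, Krt78 (log2 fold change 1.22 ± 0.32, adjusted p = 0.0438, lost without any 1 of the 5 libraries or with the Y chromosome covariate (adjusted p 0.0779 to 0.239)), and 1 lower. The lower one was Krt10, the keratin of the spinous layer, at 226 and 422 CPM in SCC labelled KO and 911, 955 and 1059 CPM in WT SCC (3.01-fold lower, log2 fold change -1.59 ± 0.33, adjusted p = 0.0178). The Krt10 call was lost when WT SCC replicate 2 or 3 or KO SCC replicate 1 was left out (adjusted p 0.0541 to 0.178). The Krt78 call was also lost with a replicate block. The list's median was 0.89, and in 8 members both libraries labelled KO lay above all of WT, against 22.9% of all genes. A fit of the carcinomas alone called 7 of 10 higher and 1 lower. Papillomas labelled KO held 2468, 2109.8 and 2719.7 CPM and WT skin 1764, 2109 and 996 CPM of Krt10, so the carcinomas labelled KO had the lowest levels. The wound keratins Krt6b, at 24514 and 21072 CPM in SCC labelled KO and 9612, 8034 and 8383 CPM in WT SCC (adjusted p = 0.173), and Krt16, at 15082 and 12682 CPM in SCC labelled KO and 9916, 9606 and 9461 CPM in WT SCC (adjusted p = 0.665), did not pass although their groups did not overlap. Basal genes were called lower in 2 of 20 (10.0%, against 3.38% of all genes) and higher in 0 (median -0.40). Krt15, a keratin of basal and hair follicle stem cells, was at 64.8 and 60.2 CPM in SCC labelled KO and 166, 127 and 152 CPM in WT SCC (2.37-fold lower, log2 fold change -1.25 ± 0.17, adjusted p = 0.00313). The integrin gene Itgb5 was at 57.5 and 66.2 CPM in SCC labelled KO and 109, 131 and 126 CPM in WT SCC (log2 fold change -0.98 ± 0.16, adjusted p = 0.00587). The Itgb5 call was lost when KO SCC replicate 1 was left out (adjusted p = 0.0843). The main basal keratins Krt14, at 40074 and 37238 CPM in SCC labelled KO and 28074, 26739 and 24951 CPM in WT SCC (adjusted p = 0.360), and Krt5, at 7646 and 6659 CPM in SCC labelled KO and 7698, 9124 and 8830.0 CPM in WT SCC (adjusted p = 0.605), did not pass.

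Genes typical of mucosal and simple epithelia rose in 12 of 22, with 0 lower and a median of 1.63. Krt4, a keratin of oral and oesophageal lining, was at 85.8 and 145 CPM in SCC labelled KO and 13.7, 8.83 and 9.62 CPM in WT SCC. It rose 10.8-fold (log2 fold change 3.43 ± 0.56, adjusted p = 0.00648) from a level that was already above that of WT skin, 2.78, 2.68 and 4.97 CPM. Mal, a proteolipid of apical rafts, was at 413 and 389 CPM in SCC labelled KO and 62.1, 88.6 and 74.6 CPM in WT SCC (log2 fold change 2.42 ± 0.29, adjusted p = 0.00146), and the groups were separate. Krt23 was at 34.9 and 68.6 CPM in SCC labelled KO and 8.59, 5.95 and 10.4 CPM in WT SCC (log2 fold change 2.64 ± 0.31, adjusted p = 0.00110), below the 170.1, 137 and 116 CPM of WT skin. Ehf, an ETS factor of epithelia, was at 242 and 287 CPM in SCC labelled KO and 105, 95.9 and 101 CPM in WT SCC (log2 fold change 1.40 ± 0.22, adjusted p = 0.00520). These genes and Mal2 were stable. Elf3, a related factor, was at 26.6 and 30.2 CPM in SCC labelled KO and 19.7, 25.1 and 21.9 CPM in WT SCC and did not pass (adjusted p = 0.684). The mucosal list counted 10 and 7 without KO SCC replicate 1 or 2, and 10, 9 and 10 without WT SCC replicate 1, 2 or 3.

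Cell junction genes showed rises among desmosomal and tight junction members. Desmosome and corneodesmosome genes rose in 8 of 17 with 0 lower (median 0.63). Cdsn, the corneodesmosin that holds corneocytes together, was at 478 and 487 CPM in SCC labelled KO and 98.8, 107 and 139.9 CPM in WT SCC. It was 4.19-fold higher and lies within 20 Mb of Dusp1 (log2 fold change 2.07 ± 0.24, adjusted p = 0.00109). Dsc1, a desmocollin of the upper layers, was at 428 and 635 CPM in SCC labelled KO and 125, 102 and 162 CPM in WT SCC (log2 fold change 2.04 ± 0.28, adjusted p = 0.00311), while desmoplakin (Dsp), found in every desmosome, was at 1027 and 1194 CPM in SCC labelled KO and 1126, 1432 and 1352 CPM in WT SCC (adjusted p = 0.671). Of 19 tight and gap junction genes 6 rose and 0 fell (median 0.30). Occludin (Ocln), a strand protein of tight junctions, was at 39.02 and 38.6 CPM in SCC labelled KO and 5.95, 4.63 and 6.76 CPM in WT SCC. The groups lay far apart (6.72-fold, log2 fold change 2.75 ± 0.17, adjusted p = 1.68e-05), with 21.9, 21.5 and 21.8 CPM in papillomas labelled KO and 19.5, 16.8 and 20.9 CPM in WT skin. Marveld2, the tricellulin gene of the same family, was at 12.4 and 12.7 CPM in SCC labelled KO and 3.60, 2.20 and 2.87 CPM in WT SCC (log2 fold change 2.12 ± 0.25, adjusted p = 0.00112). The gap junction genes Gjb2, at 917 and 1258 CPM in SCC labelled KO and 1082, 1133 and 1083 CPM in WT SCC (adjusted p = 0.987), and Gja1, at 494 and 636 CPM in SCC labelled KO and 995, 1043 and 939 CPM in WT SCC (adjusted p = 0.200), did not pass. The lists counted 4 and 4 without KO SCC replicate 1 or 2, and 5, 4 and 6 without WT SCC replicate 1, 2 or 3 for desmosomes, and 5 and 2 without KO SCC replicate 1 or 2, and 3, 3 and 5 without WT SCC replicate 1, 2 or 3 for junctions.

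Transcription factors of squamous epithelium split. Of 26 tested, 8 were higher and 4 lower (median -0.03). Ovol1, a repressor that favours exit from the cell cycle, was at 237 and 259 CPM in SCC labelled KO and 63.9, 75.2 and 67.6 CPM in WT SCC (3.60-fold, log2 fold change 1.85 ± 0.23, adjusted p = 0.00163). Hopx, a homeodomain cofactor of late differentiation, was at 690.4 and 671 CPM in SCC labelled KO and 217, 154 and 215 CPM in WT SCC (3.49-fold, log2 fold change 1.80 ± 0.25, adjusted p = 0.00312). Both were stable and had separate groups. Among those lower were Ovol2 at 3.15 and 3.20 CPM in SCC labelled KO and 7.64, 7.99 and 7.06 CPM in WT SCC (log2 fold change -1.25 ± 0.20, adjusted p = 0.00582), a call lost when KO SCC replicate 1 was left out (adjusted p = 0.0714), and Runx1 at 53.1 and 54.4 CPM in SCC labelled KO and 118, 127 and 108 CPM in WT SCC (log2 fold change -1.13 ± 0.18, adjusted p = 0.00606). The Runx1 call was lost when KO SCC replicate 1 was left out (adjusted p = 0.0758). The basal master factor Trp63 was at 256 and 264 CPM in SCC labelled KO and 455, 446 and 407 CPM in WT SCC, below WT in both libraries labelled KO, and did not pass (adjusted p = 0.0592). Sox2, a stem cell factor of squamous tumours, was at 61.3 and 52.7 CPM in SCC labelled KO and 23.3, 24.9 and 21.9 CPM in WT SCC (log2 fold change 1.29 ± 0.27, adjusted p = 0.0169), a call lost without any 1 of the 5 libraries (adjusted p 0.0518 to 0.145), against 0.720, 0.987 and 0.511 CPM in WT skin. The higher calls numbered 3 and 2 without KO SCC replicate 1 or 2, and 5, 2 and 3 without WT SCC replicate 1, 2 or 3. The keratinocyte marker sum given above, mainly Krt14, was higher in both libraries labelled KO, and its part in the rises of the epidermal lists was not tested. In bulk RNA, fewer cells of a type and less RNA per cell cannot be told apart.

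**Figure D3:**
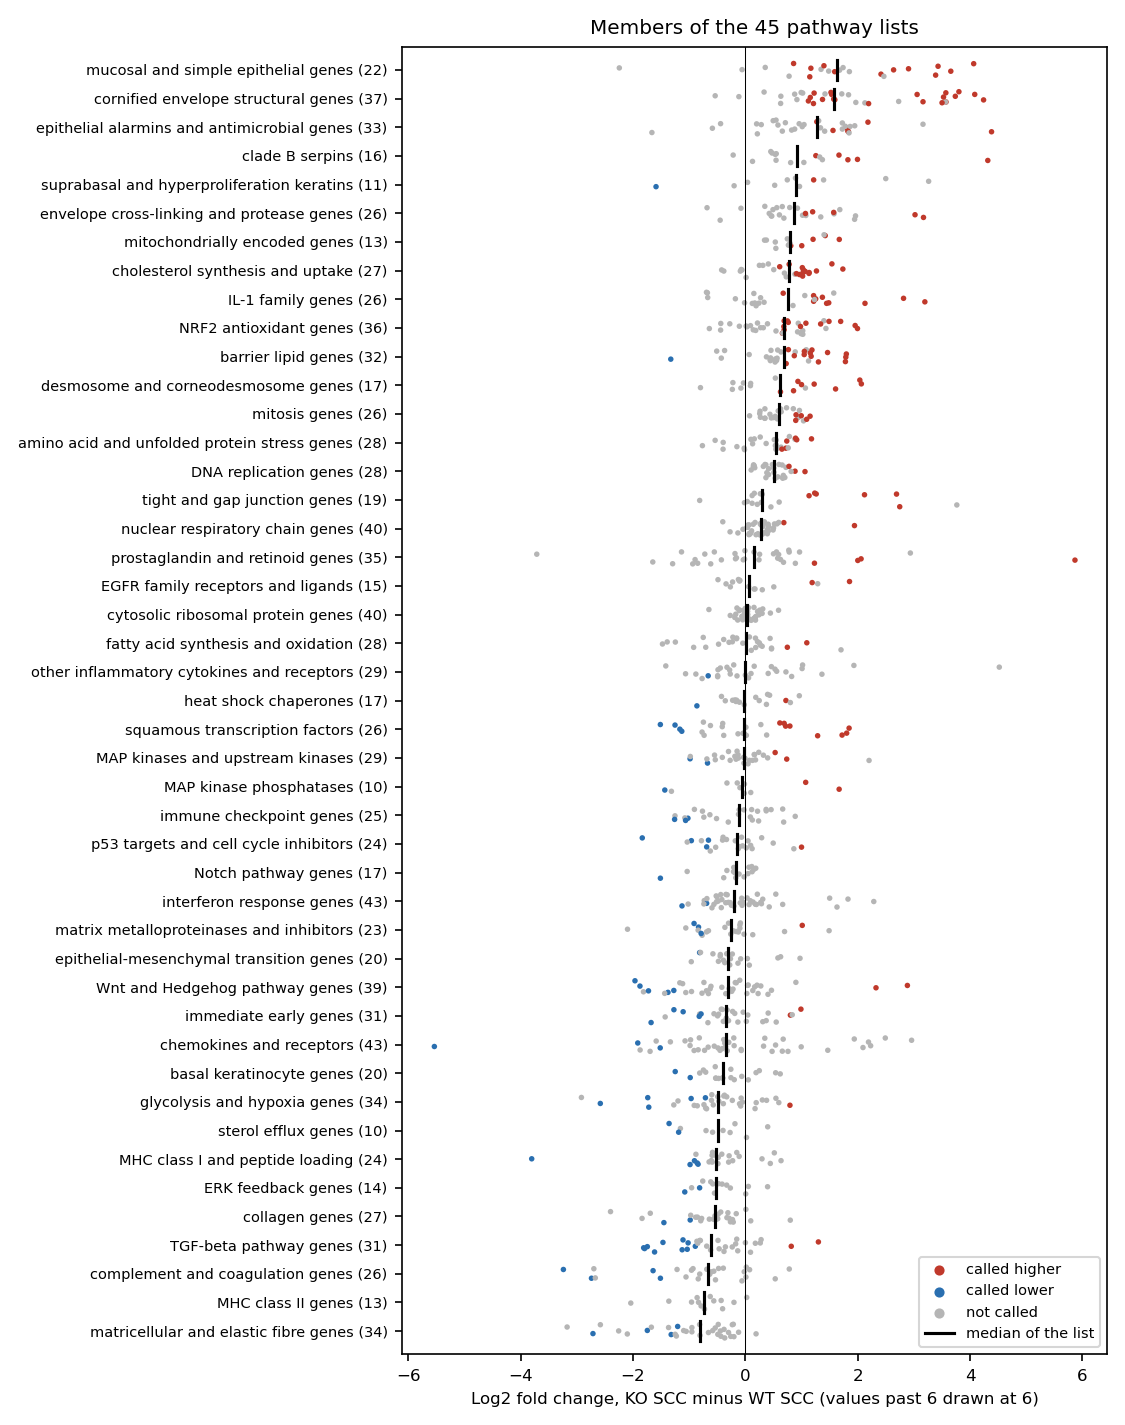
Log2 fold change of SCC labelled KO over WT SCC (x axis) for each tested member of the 45 pathway lists (rows, with the number tested), members called higher in red, lower in blue and not called in grey, with the median as a bar. Medians run from -0.81 for matricellular genes to 1.63 for mucosal genes.

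Cytokines of the IL-1 family rose in 10 of 26 tested genes of the family, its receptors and pyroptosis, and 0 fell (median 0.76). Il33, an alarmin held in the nucleus until cells are damaged, was at 225 and 252 CPM in SCC labelled KO and 33.8, 31.8 and 35.9 CPM in WT SCC, with 33.9, 25.98 and 19.4 CPM in WT skin and 189.5, 133 and 108 CPM in papillomas labelled KO. Every library labelled KO, of either lesion, lay above every WT library, and the rise between the carcinomas was 7.04-fold. Il1f6, the gene of IL-36 alpha, was at 243 and 355 CPM in SCC labelled KO and 37.5, 24.3 and 36.3 CPM in WT SCC, and Il1f5, the gene of the IL-36 receptor antagonist, at 199 and 255 CPM in SCC labelled KO and 52.8, 41.5 and 61.1 CPM in WT SCC. Agonist and antagonist were thus both higher (log2 fold change 3.20 ± 0.29, adjusted p = 0.000279 and log2 fold change 2.13 ± 0.22, adjusted p = 0.000761). Il1rn, the IL-1 receptor antagonist, was at 646 and 527 CPM in SCC labelled KO and 256, 209 and 215 CPM in WT SCC (log2 fold change 1.37 ± 0.24, adjusted p = 0.00902). The Il1rn call was lost when WT SCC replicate 2 or KO SCC replicate 1 was left out (adjusted p 0.0533 to 0.0907). Gsdma, a pore-forming gasdermin of epidermis, was at 194 and 224 CPM in SCC labelled KO and 75.00, 65.1 and 83.95 CPM in WT SCC (log2 fold change 1.48 ± 0.22, adjusted p = 0.00423), and it was stable like Il33, Il1f6 and Il1f5. The inflammasome genes Casp1, at 173 and 152 CPM in SCC labelled KO and 178, 132 and 129.9 CPM in WT SCC (adjusted p = 0.787), and Pycard, at 148 and 145 CPM in SCC labelled KO and 139.8, 115 and 109 CPM in WT SCC (adjusted p = 0.364), did not pass. The list counted 5 and 6 without KO SCC replicate 1 or 2, and 7, 4 and 7 without WT SCC replicate 1, 2 or 3.

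Antimicrobial genes and alarmins of epithelium rose in 7 of 33 with 0 lower (median 1.27). Their summed levels overlapped, at 10474 and 11116 CPM in SCC labelled KO and 12861, 9168 and 10422 CPM in WT SCC. Wfdc5, a protease inhibitor of the whey acidic protein type, was at 177 and 209.8 CPM in SCC labelled KO and 49.04, 55.4 and 59.2 CPM in WT SCC (3.54-fold, log2 fold change 1.83 ± 0.26, adjusted p = 0.00340). Beta-defensin 3 (Defb3) was at 38.4 and 26.3 CPM in SCC labelled KO and 2.09, 1.46 and 1.12 CPM in WT SCC (20.9-fold, log2 fold change 4.38 ± 0.81, adjusted p = 0.0105). The Defb3 call was lost when WT SCC replicate 2 or KO SCC replicate 1 was left out (adjusted p 0.0582 to 0.0671). Defb4, another inducible beta-defensin, was at 165 and 172 CPM in SCC labelled KO and 51.5, 27.4 and 32.6 CPM in WT SCC (log2 fold change 2.18 ± 0.46, adjusted p = 0.0183). The Defb4 call was lost when WT SCC replicate 2 or 3 or KO SCC replicate 1 or 2 was left out (adjusted p 0.0683 to 0.101). All 3 had groups that did not overlap. The list counted 4 and 2 without KO SCC replicate 1 or 2, and 5, 1 and 3 without WT SCC replicate 1, 2 or 3, while other settings gave 7 to 20 (the most with the carcinomas alone). Of the clade B serpins, intracellular protease inhibitors clustered on chromosome 1 and elsewhere, 5 of 16 rose (median 0.92). After Serpinb2, Serpinb11 was the other stable member, at 201 and 197 CPM in SCC labelled KO and 58.5, 50.2 and 59.8 CPM in WT SCC (log2 fold change 1.83 ± 0.22, adjusted p = 0.00123). Serpinb5, the maspin gene, was at 1056 and 809 CPM in SCC labelled KO and 785, 637 and 622 CPM in WT SCC and did not pass (adjusted p = 0.204). The serpins counted 2 and 3 without KO SCC replicate 1 or 2, and 4, 2 and 3 without WT SCC replicate 1, 2 or 3, while other settings gave 4 to 10 (the most with the carcinomas alone).

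Chemokine calls depended on the fit. Of 43 chemokine and receptor genes 0 rose and 3 fell (6.98%, against 3.38% of all genes, median -0.35). By contrast, 6 rose and 5 fell without the filter on low counts, 3 and 7 with DESeq2, and 5 and 8 with the carcinomas alone. Ccl2, which draws monocytes, was at 9.73 and 9.56 CPM in SCC labelled KO and 28.9, 28.4 and 25.4 CPM in WT SCC (2.86-fold lower, log2 fold change -1.51 ± 0.36, adjusted p = 0.0284). The Ccl2 call was lost without any 1 of the 5 libraries or with the Y chromosome covariate (adjusted p 0.0614 to 0.196). Its neighbour Ccl7 was at 3.95 and 5.96 CPM in SCC labelled KO and 18.1, 17.8 and 20.3 CPM in WT SCC (3.77-fold lower, log2 fold change -1.91 ± 0.43, adjusted p = 0.0233). The Ccl7 call was lost without any 1 of the 5 libraries or with the Y chromosome covariate (adjusted p 0.0514 to 0.222). Cxcl13, which draws B cells, was at 0.0577 and 0 CPM in SCC labelled KO and 1.05, 1.32 and 1.79 CPM in WT SCC (adjusted p = 0.0198). The Cxcl13 call was lost when WT SCC replicate 2 or 3 or KO SCC replicate 1 or 2 was left out (adjusted p 0.0510 to 0.114). In all 3 the libraries labelled KO lay below WT. Cxcl1, a neutrophil chemokine, was at 63.6 and 21.6 CPM in SCC labelled KO and 57.9, 47.8 and 41.5 CPM in WT SCC and the groups overlapped (adjusted p = 0.872). Chemokine falls numbered 0 and 0 without KO SCC replicate 1 or 2, and 1, 0 and 0 without WT SCC replicate 1, 2 or 3, while other settings gave 1 to 8 (the most with the carcinomas alone).

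Among the 10 phosphatases of the DUSP family tested as regulators of MAP kinases, 2 were higher and 1 lower. Besides Dusp1, Dusp9, which acts mainly on ERK, was at 6.35 and 5.69 CPM in SCC labelled KO and 2.12, 1.48 and 2.07 CPM in WT SCC (log2 fold change 1.67 ± 0.30, adjusted p = 0.00942). The Dusp9 call was lost when WT SCC replicate 2 or KO SCC replicate 1 was left out (adjusted p 0.0558 to 0.0886). Dusp10, which acts on p38 and JNK, was at 1.39 and 2.33 CPM in SCC labelled KO and 5.14, 5.46 and 4.52 CPM in WT SCC (log2 fold change -1.43 ± 0.35, adjusted p = 0.0330). The Dusp10 call was lost without any 1 of the 5 libraries or with the Y chromosome covariate (adjusted p 0.0587 to 0.295). A replicate block removed the Dusp10 call too. Dusp6, a phosphatase of ERK that ERK itself induces, was at 230.2 and 139 CPM in SCC labelled KO and 411, 504 and 462 CPM in WT SCC. Both libraries labelled KO were below all WT carcinomas, but the difference did not pass (log2 fold change -1.32 ± 0.39, adjusted p = 0.0626). Of the kinases themselves, 2 of 29 were higher and 2 lower (6.90% each, against 4.48% and 3.38% of all genes). Map3k1, an activator of JNK, was lower (log2 fold change -0.98 ± 0.18, adjusted p = 0.0106). The Map3k1 call was lost when KO SCC replicate 1 or 2 was left out (adjusted p 0.0626 to 0.116). Hras, the gene in which DMBA commonly induces a mutation, was at 271 and 217 CPM in SCC labelled KO and 224, 225 and 203 CPM in WT SCC (adjusted p = 0.624).

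Immediate early genes, first targets of these kinases, were lower in 5 and higher in 2 of 31 (median -0.34). Egr1 was at 43.3 and 26.9 CPM in SCC labelled KO and 113, 117 and 107 CPM in WT SCC. Both libraries labelled KO were well below WT (3.20-fold, log2 fold change -1.68 ± 0.30, adjusted p = 0.00914). The Egr1 call was lost when KO SCC replicate 2 was left out (adjusted p = 0.0730). Fos was at 32.1 and 25.2 CPM in SCC labelled KO and 66.7, 82.2 and 58.6 CPM in WT SCC (log2 fold change -1.27 ± 0.33, adjusted p = 0.0415). The Fos call was lost without any 1 of the 5 libraries (adjusted p 0.0681 to 0.196). Jun was at 43.6 and 52.1 CPM in SCC labelled KO and 75.5, 94.7 and 83.4 CPM in WT SCC (log2 fold change -0.82 ± 0.19, adjusted p = 0.0252). The Jun call was lost when WT SCC replicate 2 or 3 or KO SCC replicate 1 or 2 was left out (adjusted p 0.0668 to 0.249). The AP-1 partner Junb, at 415 and 343 CPM in SCC labelled KO and 280.4, 341 and 295 CPM in WT SCC, was higher in both libraries labelled KO and did not pass (adjusted p = 0.430). Gadd45b, a stress gene, was higher at 43.4 and 36.2 CPM in SCC labelled KO and 19.7, 17.6 and 22.9 CPM in WT SCC (log2 fold change 0.99 ± 0.16, adjusted p = 0.00663). The Gadd45b call was lost when KO SCC replicate 1 was left out (adjusted p = 0.0842). None of the calls in this list was stable, and the falls numbered 1 and 0 without KO SCC replicate 1 or 2, and 3, 1 and 1 without WT SCC replicate 1, 2 or 3, while other settings gave 4 to 10 (the most with the carcinomas alone).

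Feedback genes of ERK signalling fell in 2 of 14 and rose in 0 (median -0.51). The feedback falls numbered 0 and 1 without KO SCC replicate 1 or 2, and 1, 0 and 1 without WT SCC replicate 1, 2 or 3, while other settings gave 1 to 5 (the most with the carcinomas alone). Lrig1, a restraint on EGF receptors, was at 25.8 and 30.1 CPM in SCC labelled KO and 49.6, 65.98 and 61.5 CPM in WT SCC (log2 fold change -1.08 ± 0.20, adjusted p = 0.0116). The Lrig1 call was lost when WT SCC replicate 2 or KO SCC replicate 1 or 2 was left out (adjusted p 0.0520 to 0.143). Etv5, a factor that ERK induces, was at 29.2 and 25.5 CPM in SCC labelled KO and 49.1, 51.6 and 43.5 CPM in WT SCC (log2 fold change -0.81 ± 0.20, adjusted p = 0.0343). The Etv5 call was lost without any 1 of the 5 libraries or with the Y chromosome covariate (adjusted p 0.0630 to 0.177). Of 15 receptors and ligands of the EGFR family, 2 rose (13.3%, against 4.48% of all genes) and 0 fell. Nrg2, a ligand of ERBB receptors, was at 12.5 and 11.1 CPM in SCC labelled KO and 2.67, 3.81 and 3.28 CPM in WT SCC. It was stable and 3.62-fold higher (log2 fold change 1.85 ± 0.27, adjusted p = 0.00357). Ereg, the epiregulin gene, was at 64.8 and 100.3 CPM in SCC labelled KO and 41.6, 29.8 and 37.2 CPM in WT SCC (log2 fold change 1.19 ± 0.25, adjusted p = 0.0178). The Ereg call was lost when WT SCC replicate 2 or 3 or KO SCC replicate 2 was left out (adjusted p 0.0560 to 0.136). Hbegf was at 218 and 231 CPM in SCC labelled KO and 203, 212 and 190.2 CPM in WT SCC and did not pass (adjusted p = 0.803).

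Of 31 tested genes of the TGF-beta pathway 10 fell and 2 rose (median -0.62). Among ligands and their carriers, Inhbb, the activin subunit beta B, was at 27.5 and 25.95 CPM in SCC labelled KO and 78.6, 106 and 92.7 CPM in WT SCC. It was 3.47-fold lower with no overlap (log2 fold change -1.79 ± 0.18, adjusted p = 0.000547), at a level like the 26.2, 36.9 and 33.7 CPM of WT skin. Tgfb3, a ligand, was at 7.47 and 10.9 CPM in SCC labelled KO and 21.2, 32.3 and 31.1 CPM in WT SCC (log2 fold change -1.62 ± 0.29, adjusted p = 0.00881). The Tgfb3 call was lost when KO SCC replicate 1 was left out (adjusted p = 0.111). Ltbp2, which binds microfibrils and belongs to the family of latent TGF-beta carriers, was at 6.67 and 5.79 CPM in SCC labelled KO and 17.8, 23.1 and 24.6 CPM in WT SCC (3.51-fold lower, log2 fold change -1.81 ± 0.23, adjusted p = 0.00201). Thbs1, the thrombospondin gene that can activate latent TGF-beta, was at 106 and 115 CPM in SCC labelled KO and 352, 375 and 384 CPM in WT SCC (3.35-fold lower, log2 fold change -1.74 ± 0.27, adjusted p = 0.00484). The Thbs1 call was lost when KO SCC replicate 1 was left out (adjusted p = 0.0672). The receptor gene Tgfbr2 was at 86.1 and 78.8 CPM in SCC labelled KO and 83.9, 89.1 and 102 CPM in WT SCC and did not pass (adjusted p = 0.586). Smad3, the signal transducer, was at 15.4 and 14.4 CPM in SCC labelled KO and 28.3, 32.2 and 30.1 CPM in WT SCC (2.03-fold lower, log2 fold change -1.02 ± 0.16, adjusted p = 0.00471). Among targets, Pmepa1 was at 36.7 and 50.7 CPM in SCC labelled KO and 86.4, 100.1 and 96.6 CPM in WT SCC (log2 fold change -1.11 ± 0.20, adjusted p = 0.00952), a call lost when KO SCC replicate 1 was left out (adjusted p = 0.132), whereas Id1, a target of BMP signals, was higher at 396 and 371 CPM in SCC labelled KO and 177, 145 and 145 CPM in WT SCC (2.46-fold, log2 fold change 1.30 ± 0.17, adjusted p = 0.00220). Inhbb, Ltbp2, Smad3 and Id1 were stable. The falls numbered 3 and 7 without KO SCC replicate 1 or 2, and 10, 7 and 7 without WT SCC replicate 1, 2 or 3, while other settings gave 10 to 17 (the most with the carcinomas alone). The 9 myofibroblast and smooth muscle markers, of which 1 fell, summed to 143 and 140.4 CPM in SCC labelled KO and 284, 286 and 364 CPM in WT SCC; none was at 0, and their part in these falls was not tested.

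Matrix lists held falls as well, and the list of epithelial-mesenchymal transition held 1. Of 34 matricellular and elastic fibre genes 4 fell and 0 rose (median -0.81). Sparcl1, a matricellular protein, was at 101 and 131 CPM in SCC labelled KO and 276, 262 and 263 CPM in WT SCC (log2 fold change -1.20 ± 0.25, adjusted p = 0.0178). The Sparcl1 call was lost when WT SCC replicate 2 or KO SCC replicate 1 or 2 was left out (adjusted p 0.0542 to 0.190). Fbln5, which organises elastic fibres, was at 13.4 and 19.1 CPM in SCC labelled KO and 38.1, 37.5 and 46.4 CPM in WT SCC (log2 fold change -1.32 ± 0.31, adjusted p = 0.0301). The Fbln5 call was lost without any 1 of the 5 libraries (adjusted p 0.0581 to 0.273). Of 27 collagens 2 fell, Col4a5 and Col4a6 of basement membrane, and the number was 0 and 1 without KO SCC replicate 1 or 2, and 1, 0 and 0 without WT SCC replicate 1, 2 or 3, while other settings gave 2 to 9 (the most with the carcinomas alone). The 2 collagens that fell were 7.41% of those tested, against 3.38% of all genes. The fibrillar collagen gene Col3a1 was at 393 and 1343 CPM in SCC labelled KO and 954, 1188 and 1645 CPM in WT SCC, with KO SCC replicate 1 the lowest and replicate 2 inside the WT range (adjusted p = 0.699). The fibroblast markers summed to 1111 and 3340.2 CPM in SCC labelled KO and 2453, 3042 and 4176 CPM in WT SCC, KO SCC replicate 1 being the lowest. Of 20 genes of epithelial-mesenchymal transition 1 fell (5.0%, against 3.38% of all genes) and 0 rose. The gene that fell, Snai2, was at 34.3 and 32.7 CPM in SCC labelled KO and 55.5, 63.3 and 57.8 CPM in WT SCC (log2 fold change -0.81 ± 0.19, adjusted p = 0.0263). The Snai2 call was lost without any 1 of the 5 libraries (adjusted p 0.0519 to 0.175). With a replicate block the Snai2 call was lost as well. Genes of this list called higher numbered 1 with DESeq2, 2 without the filter on low counts and 2 with the carcinomas alone, beside 1, 1 and 3 called lower. E-cadherin (Cdh1) was at 293 and 304 CPM in SCC labelled KO and 308, 335 and 305 CPM in WT SCC and did not pass (adjusted p = 0.845). The falls of the matricellular list numbered 0 and 1 without KO SCC replicate 1 or 2, and 5, 1 and 2 without WT SCC replicate 1, 2 or 3, while other settings gave 4 to 15 (the most with the carcinomas alone).

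Cholesterol synthesis and uptake genes rose in 14 of 27 with 0 lower (median 0.78). Insig1, which holds the sterol sensor SCAP in the endoplasmic reticulum and is induced by its partner SREBP, was at 102 and 87.7 CPM in SCC labelled KO and 33.3, 29.2 and 35.4 CPM in WT SCC. It was stable, 2.91-fold higher and without overlap (log2 fold change 1.54 ± 0.22, adjusted p = 0.00368). Stard4, a carrier of sterols, was at 127 and 112 CPM in SCC labelled KO and 59.7, 57.8 and 59.8 CPM in WT SCC (log2 fold change 1.01 ± 0.13, adjusted p = 0.00184) and was the other stable member. Idi1, an isomerase of isoprenoid units, was at 208 and 148 CPM in SCC labelled KO and 52.99, 48.3 and 58.7 CPM in WT SCC (log2 fold change 1.74 ± 0.26, adjusted p = 0.00457). The Idi1 call was lost when KO SCC replicate 1 was left out (adjusted p = 0.0527). Srebf2, the gene of the main transcription factor of the pathway, was at 143 and 148 CPM in SCC labelled KO and 134, 177 and 153 CPM in WT SCC and its groups overlapped (adjusted p = 0.832). The list counted 2 and 10 without KO SCC replicate 1 or 2, and 10, 6 and 9 without WT SCC replicate 1, 2 or 3. Genes of sterol efflux fell in 2 of 10 and rose in 0. These were the transporter gene Abca1 at 17.7 and 26.3 CPM in SCC labelled KO and 54.4, 57.9 and 56.9 CPM in WT SCC (log2 fold change -1.36 ± 0.23, adjusted p = 0.00752), a call lost when KO SCC replicate 1 was left out (adjusted p = 0.102), and Apoe at 625 and 822 CPM in SCC labelled KO and 1470.1, 1685 and 1785 CPM in WT SCC (log2 fold change -1.19 ± 0.25, adjusted p = 0.0183). The Apoe call was lost when WT SCC replicate 2 or 3 or KO SCC replicate 1 or 2 was left out (adjusted p 0.0527 to 0.194).

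Antioxidant genes regulated by the factor NRF2 rose in 13 of 36 with 0 lower (median 0.69). Slc7a11, the cystine importer, was at 309.8 and 425 CPM in SCC labelled KO and 124, 74.2 and 78.3 CPM in WT SCC (3.99-fold, log2 fold change 1.996 ± 0.36, adjusted p = 0.00914). The Slc7a11 call was lost when WT SCC replicate 2 or KO SCC replicate 2 was left out (adjusted p 0.0564 to 0.0584). Gsta2, a glutathione transferase, was at 57.6 and 44.8 CPM in SCC labelled KO and 19.9, 12.8 and 14.6 CPM in WT SCC (log2 fold change 1.70 ± 0.32, adjusted p = 0.0116). The Gsta2 call was lost when WT SCC replicate 2 or KO SCC replicate 1 was left out (adjusted p 0.0601 to 0.108). Both genes had separate groups. Gsto1 was at 3582 and 3923 CPM in SCC labelled KO and 1411, 1418 and 1334 CPM in WT SCC, more than 2-fold above WT in both libraries labelled KO, and did not pass (adjusted p = 0.0724). The count was 2 and 3 without KO SCC replicate 1 or 2, and 4, 1 and 4 without WT SCC replicate 1, 2 or 3, while other settings gave 9 to 21 (the most with the carcinomas alone).

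Promoters of the antioxidant and cholesterol lists were searched for the known elements of their regulators, on both strands of the 250 bases before the start in RefSeq (GRCm38.p6). The antioxidant response element, searched as TGACNNNGC, lay in 7 of the 31 NRF2 list genes with a promoter entry and in 3 of the 12 that rose, against 11.5% of all 27025 genes. The sterol regulatory element, searched as TCACNCCAC, lay in 1 of 19 cholesterol list genes, Hmgcs1, which did not pass, in 0 of 10 that rose, and in 1.22% of all genes. The first letters of the antioxidant element can also form the AP-1 site TGACTCA, so that both can match at 1 place. Stretches around the match are printed for the 3 genes that rose, because they show where the element sits in genes called between the carcinomas, with the match in capitals and each read on the strand of its gene.
Txnrd1, chr10:82859089-82859147, plus strand: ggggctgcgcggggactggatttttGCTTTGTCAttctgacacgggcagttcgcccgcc
G6pdx, chrX:74428904-74428962, minus strand: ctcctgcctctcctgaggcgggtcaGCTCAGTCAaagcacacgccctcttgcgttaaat
Gsta3, chr1:21240439-21240497, plus strand: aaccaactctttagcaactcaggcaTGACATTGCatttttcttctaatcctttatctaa
In Txnrd1 and G6pdx the element is read on the strand opposite to the gene, and the 3 matches begin 92, 57 and 121 bases before the start. Txnrd1, the thioredoxin reductase gene, was at 49.8 and 48.4 CPM in SCC labelled KO and 26.7, 29.3 and 35.2 CPM in WT SCC (log2 fold change 0.69 ± 0.19, adjusted p = 0.0460). The Txnrd1 call was lost without any 1 of the 5 libraries (adjusted p 0.0609 to 0.260). G6pdx, the entry enzyme of the pentose phosphate pathway, was at 402 and 443 CPM in SCC labelled KO and 266, 251 and 236 CPM in WT SCC (log2 fold change 0.75 ± 0.17, adjusted p = 0.0253). The G6pdx call was lost without any 1 of the 5 libraries (adjusted p 0.0528 to 0.127). Gsta3 was at 51.5 and 55.4 CPM in SCC labelled KO and 19.2, 12.01 and 10.2 CPM in WT SCC (log2 fold change 1.95 ± 0.51, adjusted p = 0.0413). The Gsta3 call was lost without any 1 of the 5 libraries or with the Y chromosome covariate (adjusted p 0.0568 to 0.176). A match is a description of the letters, and no binding was measured.

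Hypoxia and glycolysis genes fell in 5 of 34 and rose in 1 (median -0.48). Ndrg1, a hypoxia-induced gene, was at 143 and 131 CPM in SCC labelled KO and 455, 509 and 405 CPM in WT SCC. The WT carcinomas exceeded every other mouse library, with WT skin at 155, 137 and 108 CPM and papillomas labelled KO at 157, 77.4 and 102 CPM, and the fall was 3.33-fold (log2 fold change -1.74 ± 0.28, adjusted p = 0.00580). The Ndrg1 call was lost when KO SCC replicate 1 was left out (adjusted p = 0.0590). Adm, the adrenomedullin gene, was at 9.24 and 6.43 CPM in SCC labelled KO and 38.2, 60.7 and 41.7 CPM in WT SCC (5.98-fold lower, log2 fold change -2.58 ± 0.51, adjusted p = 0.0143). The Adm call was lost when WT SCC replicate 2 or KO SCC replicate 1 or 2 was left out (adjusted p 0.0565 to 0.0964). Car9, a carbonic anhydrase and a classic hypoxia marker, was at 7.56 and 6.31 CPM in SCC labelled KO and 19.6, 26.7 and 22.1 CPM in WT SCC (3.29-fold lower, log2 fold change -1.72 ± 0.33, adjusted p = 0.0120). The Car9 call was lost when WT SCC replicate 2 or KO SCC replicate 1 or 2 was left out (adjusted p 0.0533 to 0.0889). Ldha, which makes lactate, was at 4852 and 3096 CPM in SCC labelled KO and 2821, 2676 and 2389 CPM in WT SCC, higher in both libraries labelled KO, and did not pass (adjusted p = 0.101). Falls of the hypoxia list numbered 0 and 1 without KO SCC replicate 1 or 2, and 4, 1 and 3 without WT SCC replicate 1, 2 or 3, while other settings gave 4 to 17 (the most with the carcinomas alone).

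Genes encoded by mitochondrial DNA rose in 5 of 13 (median 0.79). mt-Nd5, a subunit of complex I, was at 2355 and 2855 CPM in SCC labelled KO and 1059, 953 and 904 CPM in WT SCC (log2 fold change 1.42 ± 0.25, adjusted p = 0.00783). The mt-Nd5 call was lost when KO SCC replicate 2 was left out (adjusted p = 0.0540). mt-Co1, a subunit of cytochrome oxidase, was at 15817 and 17740.1 CPM in SCC labelled KO and 11544, 9734 and 8306 CPM in WT SCC and did not pass (adjusted p = 0.0530). Of 40 nuclear genes of the respiratory chain 2 rose (5.0%, against 4.48% of all genes), or 9 with DESeq2, which called 2024 of all genes higher. Ndufa4, of cytochrome oxidase, was at 2171 and 1387 CPM in SCC labelled KO and 578, 411 and 399 CPM in WT SCC, stable and 3.84-fold higher (log2 fold change 1.94 ± 0.24, adjusted p = 0.00155). Cytosolic ribosomal protein genes gave a baseline, with 0 of 40 called (1 higher and 1 lower at an unadjusted p under 0.05 with edgeR, and 1 and 1 called with DESeq2) and a median of 0.02. The mitochondrial count was 1 and 1 without KO SCC replicate 1 or 2, and 3, 1 and 2 without WT SCC replicate 1, 2 or 3, while other settings gave 6 to 9 (the most with DESeq2).

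Proliferation genes had medians above 0, with counts of calls that varied by fit. DNA replication genes rose in 3 of 28 (median 0.51), and 23 had both libraries labelled KO above all of WT, against 22.9% of all genes. Mitosis genes rose in 5 of 26 (median 0.61), with 24 separate in that direction. Ttk, a kinase of the spindle checkpoint, was at 41.2 and 35.7 CPM in SCC labelled KO and 17.8, 17.4 and 16.7 CPM in WT SCC (log2 fold change 1.15 ± 0.18, adjusted p = 0.00477). The Ttk call was lost when KO SCC replicate 1 was left out (adjusted p = 0.0621). Pola1, the catalytic subunit of DNA polymerase alpha, was at 49.9 and 39.99 CPM in SCC labelled KO and 24.2, 18.7 and 21.7 CPM in WT SCC (log2 fold change 1.06 ± 0.22, adjusted p = 0.0178). The Pola1 call was lost when WT SCC replicate 2 or 3 or KO SCC replicate 1 was left out (adjusted p 0.0584 to 0.182). With a replicate block the Pola1 call was lost too, and 0 replication and 3 mitosis genes were called higher. Mki67, the Ki-67 gene, was at 231 and 230.1 CPM in SCC labelled KO and 210.3, 198 and 171 CPM in WT SCC and did not pass (adjusted p = 0.720). The counts were 0 and 2 without KO SCC replicate 1 or 2, and 2, 0 and 0 without WT SCC replicate 1, 2 or 3, while other settings gave 4 to 17 (the most with the Y chromosome covariate) for replication, and 0 and 4 without KO SCC replicate 1 or 2, and 2, 2 and 3 without WT SCC replicate 1, 2 or 3, while other settings gave 5 to 18 (the most with the carcinomas alone) for mitosis. Cell cycle inhibitors and p53 targets fell in 4 of 24 and rose in 1. The falls of this list numbered 0 and 0 without KO SCC replicate 1 or 2, and 0, 1 and 0 without WT SCC replicate 1, 2 or 3. Gadd45a, a stress gene, was at 9.75 and 10.1 CPM in SCC labelled KO and 20.96, 18.7 and 18.2 CPM in WT SCC (log2 fold change -0.96 ± 0.21, adjusted p = 0.0198). The Gadd45a call was lost without any 1 of the 5 libraries (adjusted p 0.0511 to 0.172). Cdkn1c, the p57 gene, was at 0.866 and 0.720 CPM in SCC labelled KO and 3.22, 2.18 and 3.10 CPM in WT SCC (log2 fold change -1.83 ± 0.41, adjusted p = 0.0221). The Cdkn1c call was lost when WT SCC replicate 1 or 3 or KO SCC replicate 1 or 2 was left out (adjusted p 0.0561 to 0.145). Cdkn1a, the p21 gene, was at 249.6 and 231 CPM in SCC labelled KO and 212, 266 and 235 CPM in WT SCC and did not pass (adjusted p = 0.975).

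Biosynthetic stress genes rose in 6 of 28 with 0 lower (median 0.54). Phgdh, the first enzyme of serine synthesis, was at 198 and 199 CPM in SCC labelled KO and 119, 96.5 and 106 CPM in WT SCC (log2 fold change 0.89 ± 0.14, adjusted p = 0.00517). Mthfd2, a mitochondrial enzyme of folate metabolism, was at 39.7 and 40.6 CPM in SCC labelled KO and 21.7, 20.98 and 21.2 CPM in WT SCC (log2 fold change 0.92 ± 0.14, adjusted p = 0.00541). Both were stable with separate groups. Hspa5, the chaperone BiP of the endoplasmic reticulum, was at 1129 and 1002 CPM in SCC labelled KO and 501, 438 and 474 CPM in WT SCC (log2 fold change 1.18 ± 0.20, adjusted p = 0.00734). The Hspa5 call was lost when WT SCC replicate 2 or KO SCC replicate 1 was left out (adjusted p 0.0516 to 0.0766). The count was 2 and 3 without KO SCC replicate 1 or 2, and 4, 2 and 3 without WT SCC replicate 1, 2 or 3, while other settings gave 6 to 14 (the most with the carcinomas alone).

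Antigen presentation was called in the class I list, where 5 of 24 fell and 0 rose (median -0.51). All 5 lie within 20 Mb of Dusp1, as do 17 of the 24 members. With DESeq2 3 members of the list rose and 7 fell, and with the carcinomas alone 3 rose and 9 fell. The Y chromosome covariate gave 1 rise and 7 falls. Summed levels of the list overlapped, at 3681 and 3454 CPM in SCC labelled KO and 3564, 3442 and 3664 CPM in WT SCC. The class Ib gene H2-T23 was at 45.5 and 42.9 CPM in SCC labelled KO and 77.5, 90.4 and 94.6 CPM in WT SCC (1.98-fold lower, log2 fold change -0.98 ± 0.21, adjusted p = 0.0200). The H2-T23 call was lost when WT SCC replicate 2 or 3 or KO SCC replicate 1 or 2 was left out (adjusted p 0.0652 to 0.142). B2m, the light chain of class I, on chromosome 2, was at 538 and 499.7 CPM in SCC labelled KO and 679.8, 529 and 611 CPM in WT SCC and the groups overlapped (adjusted p = 0.523). The falls numbered 0 and 1 without KO SCC replicate 1 or 2, and 3, 0 and 0 without WT SCC replicate 1, 2 or 3, while other settings gave 5 to 9 (the most with the carcinomas alone). Class II genes held 0 calls among 13 (0 higher and 6 lower at an unadjusted p under 0.05 with edgeR, and 0 and 2 called with DESeq2; median -0.73), with Cd74, the invariant chain, at 147 and 225 CPM in SCC labelled KO and 269, 333 and 410.4 CPM in WT SCC (adjusted p = 0.0885). A fit of the carcinomas alone called 5 class II genes lower. Of the 13 tested class II genes, 10 lie within 20 Mb of Dusp1. Interferon response genes fell in 2 of 43 (4.65%, against 3.38% of all genes) and rose in 0. With DESeq2 they rose in 1 and fell in 3, and with the carcinomas alone they rose in 2 and fell in 5. Their median was -0.20, and without KO SCC replicate 1 it was 0.11 with 0 falls. Of 25 checkpoint genes 3 fell, a number that was 1 and 1 without KO SCC replicate 1 or 2, and 2, 1 and 1 without WT SCC replicate 1, 2 or 3, while other settings gave 3 to 8 (the most with the carcinomas alone). Sirpa, the receptor through which macrophages read CD47, was at 27.9 and 33.5 CPM in SCC labelled KO and 61.5, 66.04 and 64.97 CPM in WT SCC and was stable (2.09-fold lower, log2 fold change -1.06 ± 0.14, adjusted p = 0.00187), while Cd47 was at 46.1 and 52.03 CPM in SCC labelled KO and 51.04, 49.4 and 49.1 CPM in WT SCC (adjusted p = 0.939).

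Markers of immune cells differed by cell type. T lymphocyte markers held 0 calls in either direction among 17 (0 higher and 3 lower at an unadjusted p under 0.05 with edgeR, and 0 and 2 called with DESeq2) and summed to 160.4 and 145 CPM in SCC labelled KO and 167, 142 and 137 CPM in WT SCC, so the groups overlapped. Trbc2, a constant chain of the T cell receptor, was at 138 and 114 CPM in SCC labelled KO and 136, 113 and 97.4 CPM in WT SCC (adjusted p = 0.756). B and plasma cell markers fell in 4 of 16, and Ms4a1 was too low to be tested. Jchain, which joins secreted IgA and IgM, was at 3.12 and 5.54 CPM in SCC labelled KO and 57.8, 55.5 and 48.2 CPM in WT SCC (12.4-fold lower, log2 fold change -3.63 ± 0.73, adjusted p = 0.0158). The Jchain call was lost when WT SCC replicate 2 or KO SCC replicate 1 or 2 was left out (adjusted p 0.0532 to 0.168). The light chain gene Igkc was at 8.89 and 11.6 CPM in SCC labelled KO and 132, 135 and 132 CPM in WT SCC (log2 fold change -3.70 ± 0.59, adjusted p = 0.00549). The Igkc call was lost when KO SCC replicate 1 was left out (adjusted p = 0.0775). The heavy chain gene Ighm was at 4.01 and 6.53 CPM in SCC labelled KO and 9.64, 8.79 and 12.7 CPM in WT SCC and did not pass (adjusted p = 0.308). The sum of this list, 1373 and 1136 CPM in SCC labelled KO and 1359, 1544 and 1469 CPM in WT SCC, consisted mainly of Sdc1, which keratinocytes express and which was at 1352 and 1108 CPM in SCC labelled KO and 1146, 1335 and 1265 CPM in WT SCC. The falls numbered 0 and 1 without KO SCC replicate 1 or 2, and 3, 1 and 3 without WT SCC replicate 1, 2 or 3.

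Myeloid markers showed spread among the libraries labelled KO. Macrophage and monocyte markers fell in 1 of 19 (5.26%, against 3.38% of all genes) and summed to 786 and 1703 CPM in SCC labelled KO and 1119, 1185 and 1283 CPM in WT SCC. The WT carcinomas lay between the 2 libraries labelled KO. The fall was that of Lyz2, a lysozyme, at 57.2 and 51.04 CPM in SCC labelled KO and 198, 179 and 261 CPM in WT SCC (3.93-fold lower, log2 fold change -1.97 ± 0.45, adjusted p = 0.0250). The Lyz2 call was lost without any 1 of the 5 libraries or with the Y chromosome covariate (adjusted p 0.0515 to 0.174). Neutrophil markers held 0 calls among 15 (1 higher and 1 lower at an unadjusted p under 0.05 with edgeR, and 0 and 1 called with DESeq2) and summed to 1254 and 2913 CPM in SCC labelled KO and 906, 696 and 908 CPM in WT SCC, with no overlap of the groups. Most of that sum was S100a8, at 624 and 1043 CPM in SCC labelled KO and 514, 397 and 501 CPM in WT SCC (adjusted p = 0.509), and S100a9, at 556 and 837 CPM in SCC labelled KO and 297, 218 and 310.4 CPM in WT SCC (adjusted p = 0.314), which keratinocytes of tumours also express. Ly6g was too low to be tested. Dendritic and Langerhans cell markers fell in 3 of 14, a number that was 0 and 2 without KO SCC replicate 1 or 2, and 2, 1 and 1 without WT SCC replicate 1, 2 or 3, while other settings gave 3 to 5 (the most without the filter). Cd209a, a lectin of dermal dendritic cells, was at 0.0289 and 0.224 CPM in SCC labelled KO and 2.53, 3.25 and 5.12 CPM in WT SCC (adjusted p = 0.00486), a call lost when KO SCC replicate 1 was left out (adjusted p = 0.0515), against 27.9, 30.01 and 41.3 CPM in WT skin.

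Mast cell and eosinophil markers held rises, as the cytotoxic list did with Eomes. Mast cell markers rose in 2 of 12 and summed to 93.4 and 125 CPM in SCC labelled KO and 43.96, 47.5 and 67.2 CPM in WT SCC. Both risers, Tpsab1 and Tpsb2, are tryptases near Dusp1, whereas Cpa3, the mast cell carboxypeptidase, was at 7.59 and 10.4 CPM in SCC labelled KO and 6.74, 6.53 and 9.76 CPM in WT SCC (adjusted p = 0.699) and Mcpt4, a chymase, at 12.4 and 19.4 CPM in SCC labelled KO and 9.38, 13.1 and 17.4 CPM in WT SCC (adjusted p = 0.651). Of 6 eosinophil and basophil markers 1 rose, Ccr3, the eotaxin receptor, at 5.95 and 15.3 CPM in SCC labelled KO and 1.05, 1.07 and 2.31 CPM in WT SCC (7.18-fold, log2 fold change 2.84 ± 0.58, adjusted p = 0.0164). The Ccr3 call was lost when WT SCC replicate 1 or 2 or KO SCC replicate 2 was left out (adjusted p 0.0573 to 0.120). Siglecf, another eosinophil marker, was at 1.47 and 0.298 CPM in SCC labelled KO and 1.89, 1.96 and 2.26 CPM in WT SCC (adjusted p = 0.271), and Epx and Ear6 were at 0 in all 5 carcinomas. Blood endothelial markers held 0 calls among 12 (0 higher and 1 lower at an unadjusted p under 0.05 with edgeR, and 0 and 0 called with DESeq2), with Pecam1 at 46.7 and 61.97 CPM in SCC labelled KO and 49.01, 53.1 and 60.3 CPM in WT SCC (adjusted p = 0.998). Skeletal muscle markers fell in 1 of 22 (4.55%, against 3.38% of all genes) and summed to 31.7 and 21.6 CPM in SCC labelled KO and 19.8, 35.3 and 213 CPM in WT SCC, with WT SCC replicate 3 the highest. Muscle falls numbered 0 and 0 without KO SCC replicate 1 or 2, and 4, 1 and 1 without WT SCC replicate 1, 2 or 3, while other settings gave 1 to 11 (the most without the filter). Erythrocyte markers, with 0 calls among 5 (0 higher and 0 lower at an unadjusted p under 0.05 with edgeR, and 0 and 0 called with DESeq2), summed to 1279.7 and 107 CPM in SCC labelled KO and 630.5, 279.7 and 348 CPM in WT SCC.

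**Figure D4:**
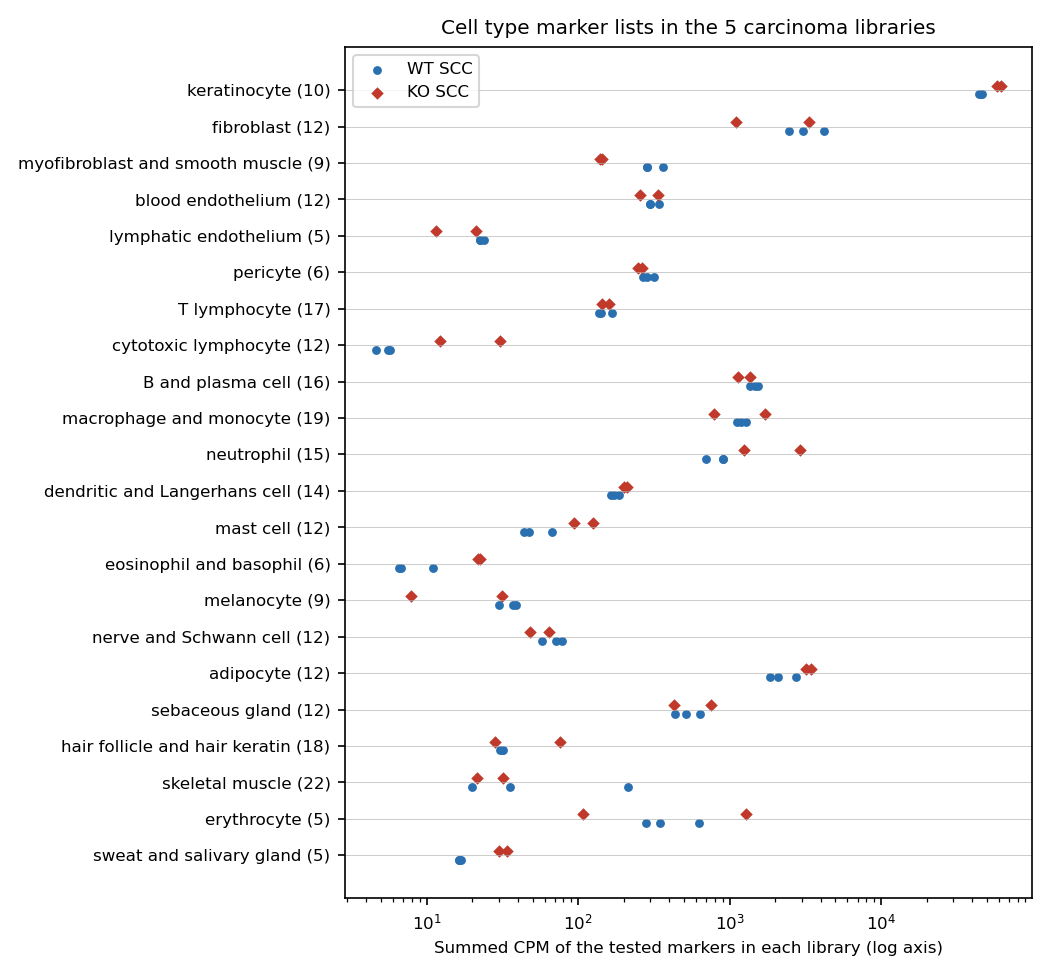
Summed CPM of the tested markers of 22 cell types (rows, with the number tested) in each carcinoma library on a log axis, SCC labelled KO as red diamonds and WT SCC as blue circles. Keratinocyte markers sum to 61807 and 58255 CPM in SCC labelled KO and to 44272 to 46129 CPM in WT SCC, while T lymphocyte sums overlap.

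The A431 tumours share no library with the mouse carcinomas and offer a second comparison of genotype labels, in carcinoma cells depleted of host cells. There DUSP1 fell (log2 fold change -2.68, adjusted p = 4.89e-17). Of 18090 genes tested, 8617 (47.6%) were called, 4178 (23.1%) higher and 4439 (24.5%) lower. Of the genes called between the mouse carcinomas, 1291 had a gene of the same symbol tested in A431, and 774 of these (60.0%) were called there as well. The direction was the same in 359 and opposite in 415. The 774 genes are 8.98% of those called in A431. Matching was by symbol alone. The column names of the libraries with the DUSP1 guide share a common part, and their titles do not say whether they come from separate clones or tumours. The spread behind the A431 p-values may therefore also be technical.

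Genes of named lists were found in both categories. Krt4 rose in A431 with DUSP1 KO too (log2 fold change 1.94, adjusted p = 6.19e-16), as did Hopx (log2 fold change 1.25, adjusted p = 1.37e-11), Sprr2b (log2 fold change 0.98, adjusted p = 2.42e-07) and Serpinb11 (log2 fold change 4.02, adjusted p = 1.23e-05). Among genes that fell in both, Fos (log2 fold change -1.11, adjusted p = 9.03e-13), Jun (log2 fold change -0.68, adjusted p = 8.45e-10) and Egr1 (log2 fold change -0.60, adjusted p = 1.43e-08) are immediate early genes, Ndrg1 (log2 fold change -0.63, adjusted p = 3.14e-10) is hypoxia-induced, Smad3 (log2 fold change -0.56, adjusted p = 1.56e-08) belongs to TGF-beta signalling and Abca1 (log2 fold change -1.34, adjusted p = 2.26e-08) to sterol efflux. The directions were opposite for Serpinb2 (log2 fold change -0.85, adjusted p = 7.08e-09 in A431), Mal2 (log2 fold change -0.33, adjusted p = 7.70e-06), Id1 (log2 fold change -0.87, adjusted p = 1.01e-09), Lrig1 (log2 fold change 0.83, adjusted p = 0.000695), Etv5 (log2 fold change 1.08, adjusted p = 3.47e-08) and Apoe (log2 fold change 1.09, adjusted p = 2.10e-09). Il33 did not pass in A431 (log2 fold change 0.08, adjusted p = 0.717), nor did Cers3 (log2 fold change -0.06, adjusted p = 0.278). Whether the effects of the genotype labels differ between mouse and A431 was not tested.

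**Figure D5:**
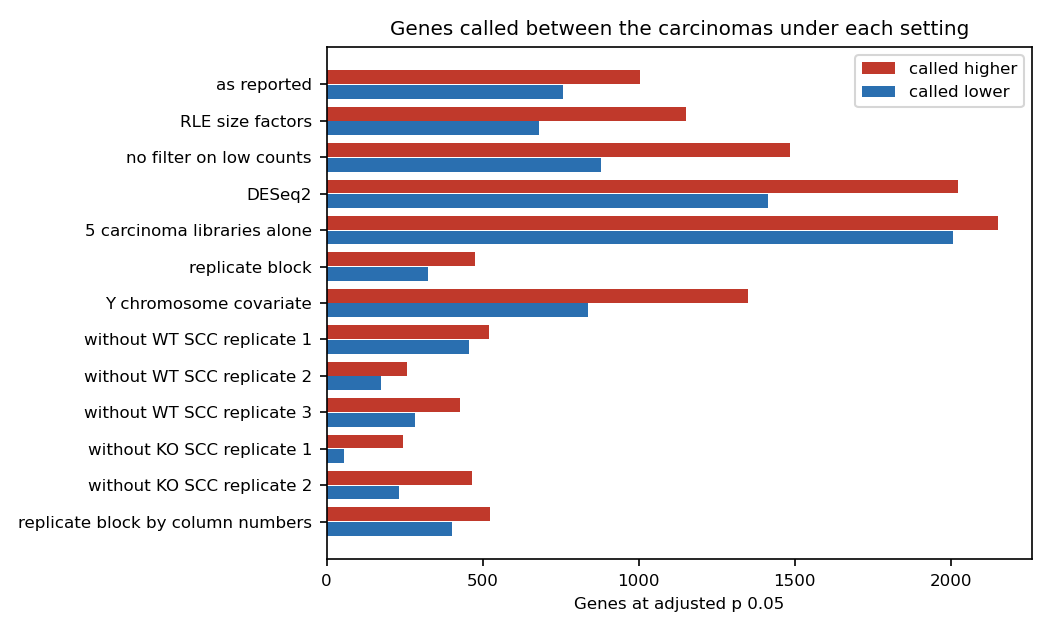
Number of genes called higher (red) and lower (blue) between the carcinomas at an adjusted p of 0.05 under each setting (rows), from the fit as reported to the fits that leave out 1 library and a block by column names. Calls fall to 246 higher and 56 lower without KO SCC replicate 1 and rise to 2152 and 2008 when the carcinomas are fitted alone.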

How the data were processed

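Poly(A) RNA was sequenced with a stranded kit, per the labels' protocols. Analysis started from the counts per gene that the authors deposited, not normalized, in 1 mouse table and 1 of A431. The submitters' processing notes name HISAT2, StringTie and DESeq and the builds hg38 and mm10. The sources used here do not give versions, the counting rule, the strand setting or the treatment of reads with several matches, so overlapping genes and near-identical copies are uncertain. The 1456 features without a name, 0.115 to 0.496% of a mouse library, were left out, and 0 sample columns were.

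The 11 mouse libraries, grouped by their labels, were fitted together, so that 4 groups share 1 estimate of the spread, with edgeR 4.0.16 in R 4.3.3. Its default filter on low counts, TMM scaling and the two-sided quasi-likelihood test were used, with Benjamini-Hochberg adjustment over all genes tested. Levels are CPM of the scaled library size, and errors of log2 fold changes are standard errors. The 6 A431 libraries had a fit of their own. On simulated data with 200 changed genes among 22371, the test found 7% of 2-fold and 39% of 4-fold changes, with 2 false calls of 48. Alternatives were RLE size factors, no filter, DESeq2 1.42.0, the carcinomas alone, a replicate block by the titles (and, added after seeing the data, by the column names), a covariate for Y chromosome counts, and each carcinoma library left out.

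The members and the 67 gene lists were chosen with earlier results of these data known, so a list's direction is not independent evidence. Named were Dusp1; the 15 genes of largest rise and the 15 of largest fall called in every fit that leaves out 1 library, with mean log2 CPM of at least 1, no overlap and no predicted gene or pseudogene; up to 8 called and 2 abundant uncalled members per list; and the 4 pseudogenes of largest change. The text names some of these, picked with their values seen. Ddx3y, Eif2s3y, Kdm5d, Uty, Xist, Txnrd1, Gsta3, Epx, Ear6, Ms4a1 and Ly6g were named outside that rule. Gene positions came from GENCODE M21 on GRCm38 by symbol, found for 99.0% of genes.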

Additional observations from a re-analysis of the deposited data

Results flagged for a closer look

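Of Dusp1 and the 30 genes of largest stable change, 6 went opposite ways from WT to KO in the mouse carcinomas and from control to KO in A431, with every KO library on one side of every control library in both tables; whether the effects differ was not tested. Dusp1 had a log2 fold change of 1.07 in mouse and -2.68 in A431 (adjusted p = 4.89e-17). Serpinb2 had 4.32 and -0.85 (adjusted p = 7.08e-09), and Mal2 3.39 and -0.33 (adjusted p = 7.70e-06). Ednra had -2.15 and 0.84 (adjusted p = 0.00135), Rnps1 -1.84 and 0.25 (adjusted p = 0.000672), and Sec14l2 -1.83 and 0.61 (adjusted p = 8.35e-05). Of the same set, Eomes, Sprr2b, Ceacam1, Krt4 and Dapl1 were separate in both tables in the same direction. Genes of the set with no gene of the same symbol tested in A431 could not be compared. Other genes were not screened for such a pattern here, and the report counts 415 genes called in opposite directions and 359 in the same. No group was large enough for a formal outlier test.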

How the results depend on the processing

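Under no alternative did a named gene change direction if it was called there or as reported. Changes in genes called in neither, and the block by column names, were not counted. The median log2 fold change of 11 of the 45 pathway lists, at most 0.203 from 0, changed sign under 1 or more, such as interferon response genes (0.11) and checkpoint genes (0.06) without KO SCC replicate 1. Genes called higher numbered 2024 with DESeq2 and 2152 with the carcinomas fitted alone, and genes called lower 1414 and 2008, against 1003 and 757 as reported. Leaving out 1 library left 246 to 519 genes higher and 56 to 456 lower. Of the calls reported, 283 were kept without KO SCC replicate 1, 580 without KO SCC replicate 2, and 932, 432 and 691 without WT SCC replicate 1, 2 or 3, in fits with fewer libraries. With Y chromosome counts as a covariate 1350 were higher and 837 lower, and the log2 fold change of Dusp1 was 0.74 (adjusted p = 0.0354). The log2 fold change of Dusp1 was 0.90 to 1.23 when 1 library was left out, past the threshold in none of these 5 fits. Of 237 called genes among the 367 that the naming rule reached apart from Dusp1, 74 were called under every alternative but the block by column names, which was not counted, and 163 lost their call under 1 or more.

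A replicate block gave 474 genes higher and 324 lower and a log2 fold change of Dusp1 of 0.93 (adjusted p = 0.0580); why fewer passed was not tested. The titles number the KO SCC libraries 1 and 2, the column names 2 and 3. A replicate block by the column names, added after seeing the data, gave 525 higher, 403 lower and 1.15 for Dusp1 (adjusted p = 0.0467). Deviations of same-numbered libraries correlated across genes at 0.13 and -0.01 by the titles, and at 0.01 and 0.14 by the column names. With 2 KO SCC libraries, whose deviations mirror each other, this does not settle whether the numbers pair the samples. Depth limits low genes: 3 counts, the limit taken for a count of 0, were 0.0618 to 0.0871 CPM.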

Other observations

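Developmental pathways held scattered calls. Of 39 Wnt and Hedgehog genes 2 rose and 5 fell in SCC labelled KO (5.13% and 12.8%, against 4.48% and 3.38% of all genes, median log2 fold change -0.31). Wnt and Hedgehog falls numbered 0 and 3 without KO SCC replicate 1 or 2, and 4, 3 and 4 without WT SCC replicate 1, 2 or 3, while other settings gave 5 to 12 (the most with the carcinomas alone). Sfrp1, a secreted Wnt inhibitor, was at 50.04 and 49.7 CPM in SCC labelled KO and 174, 189.6 and 186 CPM in WT SCC (3.67-fold lower, log2 fold change -1.88 ± 0.28, adjusted p = 0.00455). The Sfrp1 call was lost when KO SCC replicate 1 was left out (adjusted p = 0.0572). Fzd7, a Wnt receptor, was at 15.04 and 18.97 CPM in SCC labelled KO and 39.1, 50.3 and 43.1 CPM in WT SCC (log2 fold change -1.38 ± 0.20, adjusted p = 0.00401). The Fzd7 call was lost when KO SCC replicate 1 was left out (adjusted p = 0.0647). Both had groups that did not overlap. Jag1, a Notch ligand, was the 1 call among 17 Notch genes (5.88% lower, against 3.38% of all genes). It was at 52.3 and 74.5 CPM in SCC labelled KO and 173, 193 and 176 CPM in WT SCC (2.85-fold lower, log2 fold change -1.51 ± 0.31, adjusted p = 0.0159). The Jag1 call was lost when WT SCC replicate 2 or KO SCC replicate 1 was left out (adjusted p 0.0590 to 0.179). The ligand Jag2 was at 115 and 122 CPM in SCC labelled KO and 110.0, 147 and 126 CPM in WT SCC (adjusted p = 0.801).

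Complement and coagulation genes fell in 4 of 26 and rose in 0 (median -0.66). With DESeq2 1 rose and 5 fell, and with the carcinomas alone 2 rose and 9 fell. The falls as reported were C3, C2, Serping1 and C4b, and 3 members of the list lie within 20 Mb of Dusp1. Complement falls numbered 0 and 1 without KO SCC replicate 1 or 2, and 3, 0 and 1 without WT SCC replicate 1, 2 or 3, while other settings gave 4 to 9 (the most with the carcinomas alone). C3, the central component, was at 3.15 and 4.62 CPM in SCC labelled KO and 12.2, 41.1 and 56.8 CPM in WT SCC (9.44-fold lower, log2 fold change -3.24 ± 0.67, adjusted p = 0.0168), a call lost when WT SCC replicate 2 or KO SCC replicate 1 or 2 was left out (adjusted p 0.0569 to 0.171), and WT SCC replicate 1 lay between the other WT carcinomas and the libraries labelled KO. Serping1, the C1 inhibitor, was at 19.7 and 28.6 CPM in SCC labelled KO and 54.1, 75.4 and 96.6 CPM in WT SCC (log2 fold change -1.64 ± 0.44, adjusted p = 0.0444). The Serping1 call was lost without any 1 of the 5 libraries (adjusted p 0.0528 to 0.327). Enzymes of prostaglandins and retinoids rose in 4 of 35, a number that was 1 and 1 without KO SCC replicate 1 or 2, and 2, 1 and 3 without WT SCC replicate 1, 2 or 3, while other settings gave 4 to 13 (the most with the carcinomas alone). Hpgd, which degrades prostaglandins, was at 12.8 and 16.6 CPM in SCC labelled KO and 5.34, 5.33 and 8.13 CPM in WT SCC (log2 fold change 1.23 ± 0.26, adjusted p = 0.0178). The Hpgd call was lost when WT SCC replicate 1 or 2 or KO SCC replicate 1 or 2 was left out (adjusted p 0.0577 to 0.106). Dhrs9, a retinol dehydrogenase, was at 37.1 and 36.3 CPM in SCC labelled KO and 8.22, 7.35 and 10.8 CPM in WT SCC (log2 fold change 2.06 ± 0.51, adjusted p = 0.0356). The Dhrs9 call was lost without any 1 of the 5 libraries (adjusted p 0.0774 to 0.177). Fabp5, a fatty acid carrier of keratinocytes and among the most abundant transcripts, was at 18498 and 17291 CPM in SCC labelled KO and 11942, 10346 and 9678 CPM in WT SCC (log2 fold change 0.75 ± 0.20, adjusted p = 0.0433), a call lost with a replicate block. The Fabp5 call was lost without any 1 of the 5 libraries or without the filter on low counts or with the Y chromosome covariate (adjusted p 0.0609 to 0.252).

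Of the uncommon transcripts, Plaur, the urokinase receptor, was the 1 gene that rose among 23 of matrix proteolysis (4.35%, against 4.48% of all genes). It was at 20.6 and 25.5 CPM in SCC labelled KO and 10.6, 10.2 and 13.5 CPM in WT SCC (log2 fold change 1.01 ± 0.25, adjusted p = 0.0357). The Plaur call was lost without any 1 of the 5 libraries or with the Y chromosome covariate (adjusted p 0.0586 to 0.172). That call was also lost with a replicate block. The receptor's ligand Plau was at 76.5 and 119 CPM in SCC labelled KO and 178, 196 and 176 CPM in WT SCC (log2 fold change -0.91 ± 0.25, adjusted p = 0.0486). The Plau call was lost without any 1 of the 5 libraries or with RLE size factors (adjusted p 0.0517 to 0.405). The receptor was thus higher and its ligand lower in both libraries labelled KO. Melanocyte markers summed to 31.5 and 7.92 CPM in SCC labelled KO and 37.4, 29.9 and 38.9 CPM in WT SCC, with KO SCC replicate 2 the lowest.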
